A study of Mus musculus with 11 samples.

Results

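The cells described here are the splenic macrophages (macs) of Zeb2KO mice that held RNA of Meg3, a long noncoding RNA, set beside the splenic macs (SMs) of the same library that held none. They were chosen by their UMI counts, the number of distinct RNA molecules of a gene seen in a cell. A cell was taken as a mac when C1qa, C1qb and C1qc, the genes of the complement protein C1q that tissue macs make, gave 3 or more UMIs together. Of the 3744 cell barcodes of the library, 3292 (87.9%) met this. Among these, 1226 cells (37.2%, exact binomial 95% interval 35.6% to 38.9%) had 2 or more Meg3 UMIs and are called Meg3-positive SMs, 1591 had none and are called Meg3-negative SMs, and 475 cells with exactly 1 Meg3 UMI were placed in neither group. Because Meg3 and C1q were used to choose the cells, and every gene was read in the same cells, each difference between the groups is given as a description and was not tested.

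The study sequenced macs of 5 mouse tissues on the 10x Genomics droplet platform, of which 11 libraries were used here, mainly to ask what the transcription factor ZEB2 does in them. The Zeb2KO spleen library came from Fcgr1-crexZeb2fl/fl mice, in which CRE recombinase, driven by the gene of the Fc receptor CD64, cuts Zeb2 alleles that are flanked by loxP sites. The WT spleen library came from Zeb2fl/fl littermates without CRE. The study describes its mice as C57Bl/6 animals of both sexes, aged 6 to 8 weeks unless stated otherwise. The SMs were sorted as live CD45+Ly6C-Ly6G-SiglecF-CD64+F4/80+ cells. According to the study, this CRE is also active in some B cells, T cells and dendritic cells, and some of the SMs had not lost both Zeb2 alleles. How many mice were pooled is not given in the sources used here. The library of each genotype was a single one, so no spread between animals could be measured, and all intervals below cover counting error only.

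Meg3 lies in an imprinted region in which some genes are read from the maternal and others from the paternal chromosome. The noncoding RNAs Meg3, Rian and Mirg are read from the maternal copy, one after the other on the same strand, and carry many small RNAs within them, whereas the protein genes Dlk1, Rtl1 and Dio3 are read from the paternal copy. Red pulp macs, the main macs of the spleen, engulf aged red blood cells and recycle their iron. ZEB2 is a zinc finger repressor best known from the change of epithelial cells into mesenchymal ones.

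In the mm10 genome with GENCODE M21, Meg3 spans chr12:109541001-109571726 on the plus strand. B830012L14Rik, a noncoding RNA gene of unknown function, follows at chr12:109695586-109702587, and Mirg, the host of a cluster of microRNAs, at chr12:109729764-109749460, both on the same strand. The 300 bases around the first RefSeq start of Meg3, which defines the cells, and around the RefSeq start of Mirg, which differed between them, are shown. The RefSeq start of Mirg lies inside the GENCODE gene, after its first base. B830012L14Rik had no entry in the table of starts used here. They are RefSeq sequence of GRCm38.p6, from 250 bases before to 50 after the start, on the plus strand, at chr12:109540746-109541045 for Meg3 and chr12:109734731-109735030 for Mirg. Capitals mark TGACGTCA, the cAMP response element.
Meg3: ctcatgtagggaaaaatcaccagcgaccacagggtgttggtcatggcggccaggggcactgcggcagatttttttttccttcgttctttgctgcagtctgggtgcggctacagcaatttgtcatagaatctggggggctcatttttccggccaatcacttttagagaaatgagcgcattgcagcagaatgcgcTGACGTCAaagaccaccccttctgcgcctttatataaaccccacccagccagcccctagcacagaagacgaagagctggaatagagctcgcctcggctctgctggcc
Mirg: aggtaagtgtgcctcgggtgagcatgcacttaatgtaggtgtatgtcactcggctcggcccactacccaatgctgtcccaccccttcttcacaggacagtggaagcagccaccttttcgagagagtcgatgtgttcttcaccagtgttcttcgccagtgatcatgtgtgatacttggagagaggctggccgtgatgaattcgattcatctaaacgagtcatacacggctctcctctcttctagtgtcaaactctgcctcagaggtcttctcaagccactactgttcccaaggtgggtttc
TGACGTCA, which reads the same on both strands, was found 1 time in the Meg3 window, beginning 57 bases before the start, and in 588 of 32851 windows of this length (1.79%). The letters CACCTG, or CAGGTG on the other strand, which ZEB proteins recognise, were in neither of these windows, and in 6640 of the 32851 (20.2%). The windows differ little in base composition, with 53.7% G or C and 13 CpG in the Meg3 window and 51.3% and 10 in the Mirg window.

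Meg3 was common in the Zeb2KO spleen and rare in the WT spleen. At least 1 Meg3 UMI was seen in 51.7% of C1q-positive Zeb2KO cells (49.9% to 53.4%), against 0.686% of the 3642 C1q-positive WT cells (0.445% to 1.01%). Summed over C1q-positive cells and scaled to counts per 1000000 UMIs (CPM), Meg3 stood at 695 in Zeb2KO (7557 UMIs) and at 5.43 in WT (51 UMIs). Only 9 WT cells had 2 or more Meg3 UMIs, too few to describe as a group. The median C1q-positive cell had 2752 UMIs in Zeb2KO and 2219.5 in WT. With cells thinned to 1500 UMIs, 730 of 2712 Zeb2KO cells (26.9%, 25.3% to 28.6%) still had 2 or more Meg3 UMIs. Cells with fewer than 1500 UMIs were left out of all thinned shares. These were 125 Meg3-positive and 347 Meg3-negative cells, 108 cells with 1 Meg3 UMI, and 928 Meg3-negative WT cells.

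The amount of Meg3 varied widely from cell to cell within the Zeb2KO library. Meg3-positive cells held 2 to 32 Meg3 UMIs, with a median of 4 and quartiles of 3 and 8. There were 275 cells with exactly 2 UMIs, 410 with 5 to 9, 178 with 10 to 19, and 18 with 20 or more. No gap separated the Meg3-positive from the other cells, since 1591 cells had none, 475 had 1, 275 had 2, 178 had 3 and 167 had 4. Meg3-positive cells were also read more deeply, with a median of 3346.5 UMIs and 1554 genes against 2448 and 1175 in Meg3-negative cells. C1q behaved alike, with a median of 16 UMIs per cell (range 3 to 86) against 11 (3 to 87). Counts of genes are therefore also given with the Meg3-negative cells weighted to the depth of the Meg3-positive ones.

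**Figure D1:**
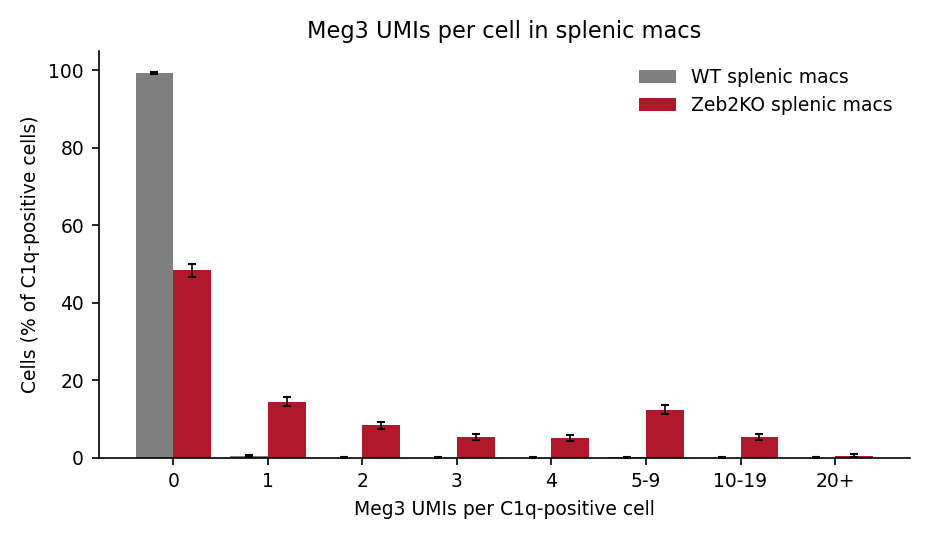
Meg3 UMIs per cell in C1q-positive splenic macs. The horizontal axis gives the number of Meg3 UMIs in a cell and the vertical axis the percent of cells, for Zeb2KO and WT, with exact binomial 95% intervals as bars. In Zeb2KO 48.3% of cells lack Meg3 and 37.2% hold 2 or more UMIs, whereas in WT 99.3% lack it.

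Meg3 UMIs were also seen in the cells that fell under the C1q limit, which came from the same sort and may include macs. Of the 452 Zeb2KO cells with fewer than 3 C1q UMIs, 91 (20.1%, 16.5% to 24.1%) had a Meg3 UMI and 21 (4.65%) had 2 or more, at a median depth of 2277.5 UMIs. Of the 288 among them with 3 or more UMIs of B cell markers, 45 (15.6%, 11.6% to 20.3%) had a Meg3 UMI, and 3 had 2 or more. Meg3 UMIs per 100 UMIs of Vcam1, an adhesion molecule of red pulp macs, were 14.8 in C1q-positive cells, 15.5 in cells under 3 C1q UMIs and 11.98 in the B cell marked cells. In the 120 cells with 0 C1q UMIs the value was 17.7. The part of free RNA, or of joined cells, in these shares was not tested. In WT, 5 of 832 such cells (0.601%) had a Meg3 UMI.

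Cells just inside and just outside the limits were as follows. Cells with exactly 2 Meg3 UMIs had Mirg at 14.04 CPM, B830012L14Rik at 30.6, Vcam1 at 5234 and Cdkn2a at 58.7. In cells with exactly 1 these were 7.51, 10.9, 4594 and 50.6 CPM. Of the 135 cells with exactly 3 C1q UMIs, 10.4% had 2 or more Meg3 UMIs, against 6.76% of the 148 cells with exactly 2.

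Markers of red pulp macs were present in both groups. Vcam1 was at 5190 CPM in Meg3-positive and 4236 CPM in Meg3-negative cells, and the haem oxygenase Hmox1, which breaks down haem, at 9739 and 9440. The iron exporter Slc40a1 was at 5405 and 4544 CPM, and Spic, the transcription factor that red pulp macs need, at 1398 and 1131. Against WT, the 30 genes of red pulp macs and iron handling had log2 medians of -0.19 in Meg3-positive and -0.38 in Meg3-negative cells. Of the 30, 3 and 5 were past 2-fold lower and 0 higher, Cd163 the lowest of them. Over all genes, 1.32% and 1.11% were past 2-fold lower than WT, and 2.39% and 2.04% higher. Markers of other cells were present too. At least 3 UMIs of B cell markers were found in 268 Meg3-positive (21.9%) and 372 Meg3-negative cells (23.4%), and in 21.2% of WT cells. The summed level of the B cell list was 539 CPM in Meg3-positive, 1020 in Meg3-negative and 904 in WT cells. At least 3 UMIs of plasma cell markers were found in 12.1% and 10.6% of Meg3-positive and Meg3-negative cells (summed level 439 and 515 CPM), and of monocyte markers in 10.8% and 10.1% (234 and 324 CPM). Lists of fibroblasts (15.4 and 17.3 CPM), endothelium (18.7 and 20.8), platelets (4.62 and 4.73) and T and NK cells (16.3 and 34.0) were low in both groups, and Col1a1, Dcn, Lum, Emcn, Cldn5 and Cd3e had 0 UMIs in the Meg3-positive cells. Counts below are therefore also given for the 782 Meg3-positive and 1041 Meg3-negative cells that held fewer than 3 UMIs of every such list. Between the Zeb2KO spleen and each other library, 17 to 42 cell barcodes were shared, at most 1.12% of its barcodes.

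Few genes separated Meg3-positive from Meg3-negative SMs. Among 6112 genes at 20 CPM or more in the higher group, with Meg3 and C1q left out, 4 genes (0.0654%) were at least 2-fold higher and 52 (0.851%) at least 2-fold lower in Meg3-positive cells, on the log2 scale of CPM plus 1, which makes 56 in all (0.916%). No gene at 50 CPM or more was 2-fold higher, and 13 of 3164 (0.411%) were 2-fold lower. The median difference over the 6112 genes was 0.07 on the log2 scale. No p-value is given for any of these, since each group is part of 1 library. The genes that were higher were B830012L14Rik, Mirg, Nr2e3 and Med12l. They are named after their values were seen, as are the lower genes named below, because the naming rule, set at genes of 50 CPM or more that were past 2-fold also without other cells and at equal depth, returned 0 in either direction. Of all genes, 5812 (95.1%) differed by less than 0.5 on the log2 scale. With the Meg3-negative cells weighted to the depth of the Meg3-positive cells, 5 genes (0.0816%) were higher and 66 (1.08%) lower of 6128, and with cells holding other markers left out as well, 4 (0.0658%) and 7 (0.115%) of 6081.

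The genes that differed most were the noncoding RNAs that lie downstream of Meg3. B830012L14Rik was at 38.7 CPM in Meg3-positive SMs (176 UMIs, 33.2 to 44.9) and at 1.44 CPM in Meg3-negative SMs (7 UMIs, 0.579 to 2.97), a ratio of 26.9 (12.8 to 67.8). Mirg was at 32.8 CPM (149 UMIs, 27.7 to 38.5) and at 2.68 CPM (13 UMIs, 1.42 to 4.57), a ratio of 12.2 (6.95 to 23.5). Their log2 differences were 4.02 and 3.20 in all cells. In Meg3-negative WT SMs neither RNA was seen, so that with 3 UMIs as the limit of detection Mirg was at least 102-fold and B830012L14Rik at least 120-fold higher in Meg3-positive Zeb2KO SMs. Thinned to 1500 UMIs, 4.54% of Meg3-positive and 0.563% of Meg3-negative cells had a Mirg UMI, and 5.72% and 0.241% a B830012L14Rik UMI. Both RNAs were thus sparse, and most Meg3-positive cells gave no UMI of either.

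The same counts were also read from the other side, which describes the same cells again and adds no further support. Of the 157 C1q-positive cells with a Mirg UMI, 84.7% (78.1% to 90.0%) had 2 or more Meg3 UMIs, against 34.9% of the cells without Mirg. Meg3 was at 1796 CPM in the cells with Mirg and at 627 CPM in those without. Of the 170 cells with a B830012L14Rik UMI, 87.6% were Meg3-positive, against 34.5% of the rest. Cells with a UMI of any gene are on average read more deeply, so these shares were set beside those for other genes. For Cdkn2a the shares were 37.8% of 339 cells with a UMI and 37.2% of those without, and for Ms4a1 38.2% and 36.9%. For Itgax they were 44.8% and 33.6%, with median depths of 3615 and 2410 UMIs.

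The protein genes of the region were at or near 0. Dlk1, a membrane ligand of the Notch family, and Dio3, the deiodinase that inactivates thyroid hormone, had 0 UMIs in both groups. Rtl1, a gene derived from a retrotransposon, and Begain, which lies before Dlk1, had 1 UMI each in Meg3-positive cells and 0 in Meg3-negative cells. At the flanks, Wdr25 had 17 and 13 UMIs, and Ppp2r5c, a subunit of the phosphatase PP2A, was at 49.7 and 59.1 CPM. Of the 18 genes listed from other imprinted regions, only 4 were at 20 CPM or more in the higher group. These 4 ranged from -0.06 to 0.29 on the log2 scale, and Igf2r, the receptor that takes up IGF2, was at 44.0 and 39.9 CPM. H19 and Peg3 had 0 UMIs in both groups. With 0 or 1 UMIs, Dlk1, Dio3, Rtl1 and Begain could show no difference either way.

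The levels of both RNAs were higher at each step of Meg3. Over cells with 0, 1, 2 to 4, 5 to 9 and 10 or more Meg3 UMIs, Mirg was at 2.68, 7.51, 19.9, 36.4 and 52.6 CPM. B830012L14Rik was at 1.44, 10.9, 29.2, 43.8 and 49.5 CPM over the same cells. These groups held 1591, 475, 620, 410 and 196 cells, and their median depth went from 2448 and 2471 UMIs over 2551.5 and 3755 to 4839.5. Between the cells with 0, 1 and 2 to 4 Meg3 UMIs, depth was thus nearly even. Of the other genes read over these steps, Fcgr2b went from 39.5 CPM at 0 to 10.3 CPM at 10 or more Meg3 UMIs. Cd209b went from 33.5 to 97.9 CPM. Without cells holding other markers Fcgr2b went from 25.5 to 2.58 CPM, the last from 1 UMI. Cd209b was then at 17.4, 8.87, 31.2, 31.4 and 7.74 CPM, the last from 3 UMIs. In all cells Cdkn2a was at 53.7, 50.6, 50.6, 38.2 and 35.0 CPM, and Vcam1 at 4236, 4594, 5359, 5135 and 4938. The nuclear noncoding RNA Malat1 went from 39876 to 62747 CPM, and Zeb2 from 747 to 1114 CPM. Without cells holding other markers Cdkn2a was at 68.4, 67.2, 56.6, 33.8 and 59.3 CPM, the last with an interval of 37.6 to 89.0.

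**Figure D2:**
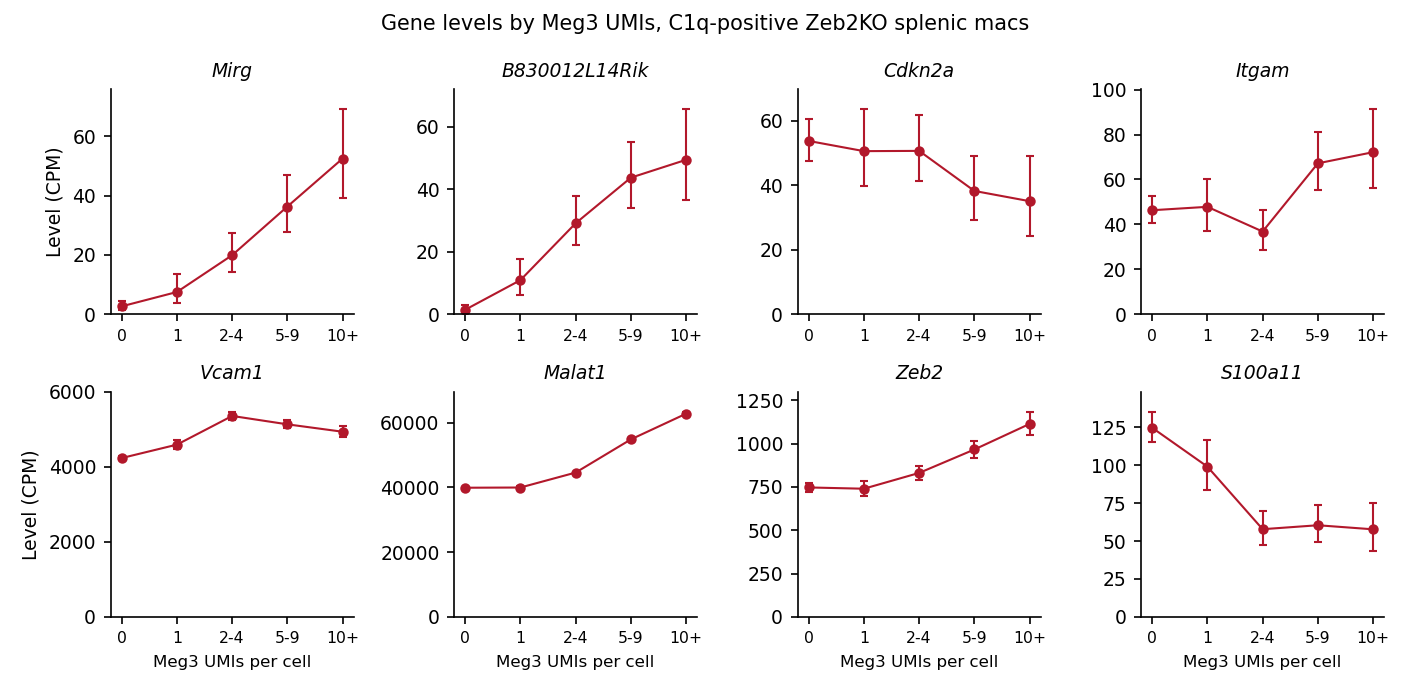
Levels of single genes in C1q-positive Zeb2KO splenic macs grouped by their number of Meg3 UMIs. The horizontal axis gives Meg3 UMIs per cell and the vertical axes CPM with exact Poisson 95% intervals. Mirg and B830012L14Rik go from 2.68 and 1.44 CPM to 52.6 and 49.5 CPM, and Cdkn2a from 53.7 to 35.0 CPM. All C1q-positive cells are drawn. Without cells holding other markers, Cdkn2a was at 68.4 CPM in the first and 59.3 CPM (37.6 to 89.0) in the last group.

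Outside the Meg3 region, 2 genes were past 2-fold higher, Nr2e3 and Med12l. Nr2e3, a nuclear receptor best known from photoreceptors, was at 35.2 CPM in Meg3-positive (160 UMIs) and 16.3 CPM in Meg3-negative SMs (79 UMIs), a ratio of 2.16 (1.64 to 2.87). In WT it was at 0.964 CPM (9 UMIs). Med12l, a paralogue of a subunit of the Mediator complex, was at 21.8 CPM (99 UMIs) and 9.47 CPM (46 UMIs), a ratio of 2.30 (1.61 to 3.34), and at 3.86 CPM in WT. Both ratios stand near the limit of 2 and their intervals include it. Without cells holding markers of other cells, 5 of 6071 genes (0.0824%) were 2-fold higher. These were B830012L14Rik, Mirg and Nr2e3 with Hist1h1e (log2 1.05) and Usp10 (1.03), and Med12l no longer counted although its log2 difference was 1.06, because its level was under 20 CPM.

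The genes that were lower in Meg3-positive SMs held most of the B cell list. Of the 52 lower genes, 10 are among the 12 genes of the B cell list, beside 0.851% of all genes. They include Cd79a, Cd79b, Ebf1 and Pax5. Ebf1, a transcription factor that sets B cell identity, was at 32.8 CPM (27.7 to 38.5) and 142 CPM (132 to 153), a log2 difference of -2.08. Cd79a, the signalling chain of the B cell receptor, was at 55.0 and 163 CPM. Plac8, Mzb1 and Mef2c, which are also abundant in lymphoid cells, differed by -1.77, -1.68 and -1.65. The median of the B cell list was -1.31 over all cells and 0.03 without the cells that held markers of other cells, a filter that uses these genes itself. Ebf1 then differed by 0.04 and Pax5 by 0.03.

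Without those cells, 3 of 6071 genes (0.0494%) were 2-fold lower, and all 3 are among the 52. Fcgr2b, the inhibitory Fc receptor, was at 11.4 CPM (52 UMIs) in Meg3-positive and 39.5 CPM (192 UMIs) in Meg3-negative SMs, and its log2 difference was -1.70 in all cells and -2.14 without other cells. Tmem176a, a membrane protein of macs and dendritic cells, was at 10.99 and 35.2 CPM (-1.59 and -1.57). Cbr2, a carbonyl reductase, was at 11.2 and 24.1 CPM (-1.04 and -1.38). All were near the lower limit of the levels considered. Retnla, a secreted protein of alternatively activated macs, had 12 and 100 UMIs, or 2.64 and 20.6 CPM, and 0 UMIs in WT. Its log2 difference was -2.57 in all cells and -2.02 without other cells, where it no longer counted because its level was under 20 CPM.

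S100a11, a calcium-binding protein, was lower at a higher level of expression. It was at 58.7 CPM in Meg3-positive (51.9 to 66.2) and 125 CPM in Meg3-negative SMs (115 to 135), a 2.12-fold lower level (1.84 to 2.46), and at 26.7 CPM in WT. Its log2 difference was -1.07 in all cells and -0.92 without other cells. Thinned to 1500 UMIs, 5.63% and 11.2% of cells had a UMI. Across cells with 0, 1, 2 to 4, 5 to 9 and 10 or more Meg3 UMIs it was at 125, 99.1, 57.8, 60.4 and 57.7 CPM. Without cells holding other markers it was at 80.6, 55.7, 44.7, 45.9 and 25.8 CPM, the last from 10 UMIs (12.4 to 47.4). Slc7a11, the cystine transporter, was also lower at 15.8 against 30.9 CPM (log2 -0.92), and Lyz2, lysozyme, at 148 against 243 CPM (-0.71).

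**Figure D3:**
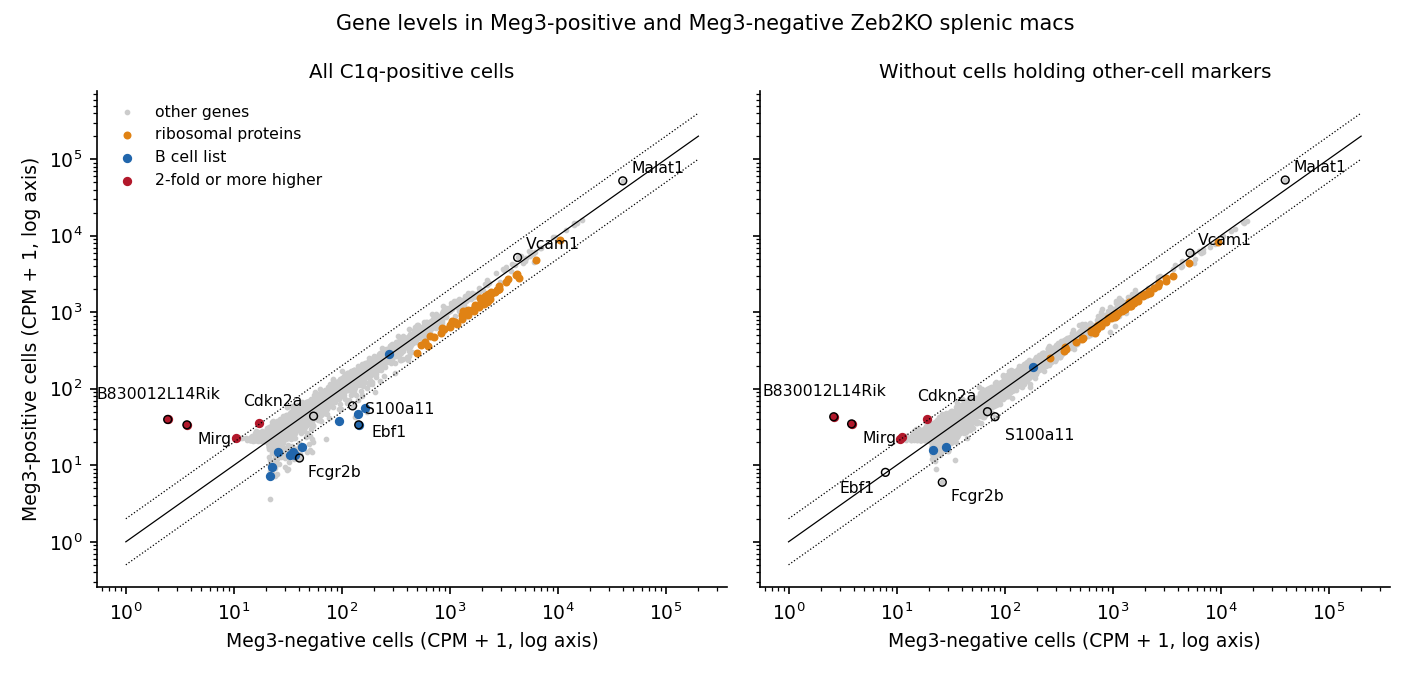
Level of each gene in Meg3-negative (horizontal axis) and Meg3-positive (vertical axis) Zeb2KO splenic macs, in CPM plus 1 on log axes, for all C1q-positive cells (left) and without cells that held markers of other cells (right). The solid line marks equal levels and the dotted lines a 2-fold difference, and 10 genes of the B cell list lie below the lower dotted line on the left and none on the right, whereas Mirg and B830012L14Rik lie above them on both sides.

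Vcam1 and Cdkn2a were named beside Meg3 as marks of these cells, and differed in opposite directions. Vcam1 was 1.23-fold higher in Meg3-positive SMs (1.20 to 1.25), and below the 6351 CPM of WT in both groups. Cdkn2a, which encodes the CDK4 inhibitor p16 and the p53 activator p19ARF, was at 42.9 CPM in Meg3-positive (37.1 to 49.3) and 53.7 CPM in Meg3-negative SMs (47.4 to 60.6), a ratio of 0.798 (0.660 to 0.965). In WT it was at 0.964 CPM (9 UMIs), so both Zeb2KO groups were far above WT, with ratios of 44.5 (22.9 to 98.7) and 55.7 (28.9 to 123). Thinned to 1500 UMIs, 5.09% of Meg3-positive and 7.48% of Meg3-negative cells had a Cdkn2a UMI, and 0.186% of WT cells. Cdkn2a thus set both Zeb2KO groups apart from WT and was no higher in the Meg3-positive than in the Meg3-negative cells.

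Other cell cycle inhibitors differed little between the groups. Cdkn1a, which encodes p21, was at 54.8 and 55.6 CPM and at 9.11 in WT, and its log2 difference turned with the cells kept, from -0.02 in all cells to 0.30 without other cells and -0.39 with 10 or more C1q UMIs. Cdkn2b, which encodes p15, was at 6.82 and 6.38 CPM. None of the 9 genes of CDK inhibitors and D cyclins that were considered was past 2-fold (median 0.07), nor of 13 p53 targets (0.09) or 10 secreted factors of senescence (0.18). Without other cells the lowest of the 10 secreted factors differed by -1.25, with its level then under 20 CPM. With 0.916% of all genes past 2-fold, a count of 0 in lists of this size says little, and the same holds for the other lists below. Of 9 genes of DNA replication and mitosis, only Top2a, the topoisomerase of dividing cells, was past 2-fold, at 9.45 against 24.1 CPM, and the list median was -0.16. Without other cells Top2a differed by -0.70.

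Several markers of Zeb2 loss named by the study were present in both groups, and 4 of the 7 listed reached 20 CPM in the higher group. Itgam, which encodes CD11b, was at 55.2 and 46.3 CPM against 5.36 in WT, and Itgax, which encodes CD11c, at 175 and 157 CPM against 28.1. Ms4a1, which encodes CD20, was at 174 and 229 CPM against 99.0, and is a B cell gene as well. Siglecf was at 13.9 and 12.8 CPM against 3 UMIs in WT, ratios of 43.1 (14.1 to 215) and 39.7 (12.96 to 198), although the sort took SiglecF-negative cells. Thinned to 1500 UMIs, 8.36% of Meg3-positive and 5.39% of Meg3-negative cells had an Itgam UMI and 22.6% and 17.8% an Itgax UMI. Over cells with 0 to 10 or more Meg3 UMIs, Itgam was at 46.3, 47.8, 36.8, 67.2 and 72.1 CPM. Without other cells the log2 difference went from 0.25 to -0.02 for Itgam and from 0.16 to 0.03 for Itgax. It went from -0.39 to -0.02 for Ms4a1 and from 0.11 to 0.21 for Siglecf. Epcam, an epithelial adhesion gene that the study describes as higher in its SMs without Zeb2, had only 6 and 21 UMIs. Cd101, a membrane receptor of myeloid cells, had 3 and 2.

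Zeb2 RNA was not lower in the cells with Meg3. It was at 940 CPM in Meg3-positive, 747 in Meg3-negative and 693 in WT SMs. Thinned to 1500 UMIs, 69.2%, 56.1% and 62.4% of these cells had a Zeb2 UMI. Against WT, Meg3-negative SMs were thus higher in the level of Zeb2 and lower in the share of cells with it. Its log2 difference was 0.33 in all cells, 0.22 without other cells and 0.15 with equal depth as well. The assay counts the 3′ end of RNA, which a deletion of an inner exon leaves in place. These UMIs alone thus do not tell cells that lost Zeb2 from cells that kept it. The study used higher Zeb2, with other markers, to identify SMs without Zeb2, and proposes a feedback on the truncated RNA.

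Genes of mac programmes differed by small amounts. Of 30 genes of red pulp macs and iron handling, 0 were past 2-fold, 28 were above 0 and the median was 0.21 on the log2 scale, where 3918 of all 6112 genes were above 0. Without other cells 20 of the 30 and 3552 of the 6112 were above 0, and the median of the 30 was 0.10. The 12 genes of the mac core had a median of 0.19 (0.06 without other cells), with none past 2-fold. Csf1r, the receptor for the survival factor CSF1, was at 1151 and 989 CPM, and Adgre1, which encodes F4/80, at 609 and 577. Of 20 genes of LXR and lipid handling (0.20), 25 lysosomal genes (0.13), 8 complement genes other than C1q (0.24) and 17 interferon-stimulated genes (0.13), 0 were past 2-fold, beside 0.916% of all genes. The 9 genes of MHC class II had a median of -0.06, and Cd74, the MHC class II chaperone, was at 5153 and 5014 CPM. Of 9 chemokines, 2 were past 2-fold lower, which were Ccl3 (15.8 against 38.1 CPM) and Pf4 (14.95 against 49.4), and without other cells they differed by -0.72 and -0.71.

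Small shifts of most or all members of a list were seen in immediate early and ribosomal genes, beside the 3918 of 6112 genes above 0 in all. Of 21 immediate early genes, the first genes that cells switch on after a stimulus, 19 were above 0, with a median of 0.30 and a range of -0.30 to 0.56, and without other cells all 21 were above 0 with a median of 0.36. Jun, a subunit of the AP-1 factor, was at 604 and 420 CPM, and Dusp1, a phosphatase that ends MAP kinase signals, at 1190 and 870. All 61 ribosomal protein genes were below 0, with a range of -0.79 to -0.27 and a median of -0.51, which was -0.20 without other cells. Their summed level was 89329 CPM in Meg3-positive, 124591 in Meg3-negative and 113867 in WT SMs. Of 35 genes of oxidative phosphorylation, 3 were above 0 (median -0.13). The mitochondrial share of UMIs was 6.97% in Meg3-positive and 7.31% in Meg3-negative cells. Haemoglobin, which comes from red cells, summed to 16229 and 13932 CPM in all cells and, the other way round, to 3173 and 4459 CPM without other cells. Depth differed as given above. With the Meg3-negative cells weighted to equal depth, the medians were -0.59 for ribosomal, 0.36 for immediate early and -0.15 for oxidative phosphorylation genes. With other cells left out as well, the ribosomal median was -0.28. The part of free RNA and cell quality was not tested.

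The genes that varied most like Meg3 from cell to cell were abundant mac genes and nuclear RNAs. Over the 3292 C1q-positive cells and 5868 genes, Pearson's r of log-scaled UMIs per 10000 with Meg3 was 0.29 for Malat1, 0.21 for Rgs1 and Vcam1, and 0.20 for Zeb2 and Marcks. It was 0.19 for Neat1 and Mertk, and 0.18 for Dusp1, Slc40a1 and Xist. Without cells holding other markers r was 0.08 for Slc40a1, 0.15 for Marcks, Vcam1 and Mertk, 0.18 for Zeb2, 0.23 for Xist and 0.32 for Malat1. These cells share 1 library and its depth, and r is small for genes with few UMIs per cell, so the order says little about sparse RNAs such as Mirg. Malat1 was at 52096 CPM in Meg3-positive and 39876 in Meg3-negative SMs, and Neat1, the RNA of nuclear paraspeckles, at 936 and 675. The ribosomal gene Rplp1 was lowest at -0.19. With the log of the total UMIs of a cell, Meg3 had an r of 0.05.

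Both groups were then set beside Meg3-negative WT SMs (3617 cells), to ask whether the differences of the Zeb2KO library from WT sit in the Meg3-positive cells. Both comparisons share the WT cells. In Meg3-positive SMs 148 of 6199 genes (2.39%) were 2-fold higher and 82 (1.32%) lower than in WT, and in Meg3-negative SMs 125 (2.04%) and 68 (1.11%) of 6140. Without cells holding other markers the counts were 142 (2.31%) and 58 (0.945%) of 6138, and 143 (2.34%) and 65 (1.06%) of 6111. Against 56 genes past 2-fold between the Zeb2KO groups themselves, each thus differed from WT in more genes.

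Genes by which the study told its splenic groups apart differed from WT in both. The study chose these genes on the same cells, so they are not independent evidence of a direction. In the study, group 0 holds Zeb2+/+, group 1 presumably Zeb2+/- and group 2 Zeb2-/- SMs. Of all genes, 2.39% and 2.04% were 2-fold higher and 1.32% and 1.11% lower than WT in Meg3-positive and Meg3-negative SMs. Of 14 genes listed first for its group 2, 13 were 2-fold higher than WT in Meg3-positive and 14 in Meg3-negative SMs, with medians of 2.57 and 2.50. Among them, the marginal zone receptor Cd209b was at 58.9 CPM in Meg3-positive and 33.5 in Meg3-negative SMs against 3.54 in WT, and the dipeptidase Dpep2 at 42.9 and 36.0 against 0.750. Of 15 genes for group 1, 8 were 2-fold higher in each (medians 1.08 and 1.095), and the cell adhesion gene Nfasc of this list was at 128 and 81.5 CPM against 13.7. Of 15 genes for group 0, 10 and 11 were 2-fold lower than WT (medians -1.10 and -1.39). Between Meg3-positive and Meg3-negative SMs the medians of the same lists were -0.02, 0.03 and 0.31. The group 2 genes ranged from -1.07 (S100a11) to 0.79 (Cd209b), with 7 of 14 above 0. Of the group 1 genes 8 of 15 were above 0, and of the group 0 genes 14 of 15, beside 3918 of all 6112 genes. Without other cells, 2 of 14 group 2, 5 of 15 group 1 and 15 of 15 group 0 genes were above 0, beside 3552 of 6112. The medians were then -0.08, -0.09 and 0.28.

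Single genes also differed from WT in both groups. Cd163, the receptor for haemoglobin bound to haptoglobin, was at 24.6 and 24.3 CPM in the Zeb2KO groups and at 361 in WT, a 14.7-fold (12.2 to 17.9) and 14.9-fold (12.4 to 18.0) lower level. Ccl24, an eosinophil chemokine, was at 744 and 580 CPM against 126 in WT, and Marco, a scavenger receptor of marginal zone macs, at 638 and 524 against 215. Slpi, a secreted protease inhibitor, was at 3721 and 3075 CPM against 1027. Of the genes of MHC class II, 5 of 9 were 2-fold higher than WT in each group, beside 2.39% and 2.04% of all genes. Immediate early genes had a median of -0.42 in Meg3-positive and -0.74 in Meg3-negative SMs against WT. Since all Zeb2KO cells came from 1 library and all WT cells from another, genotype and library cannot be told apart.

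**Figure D4:**
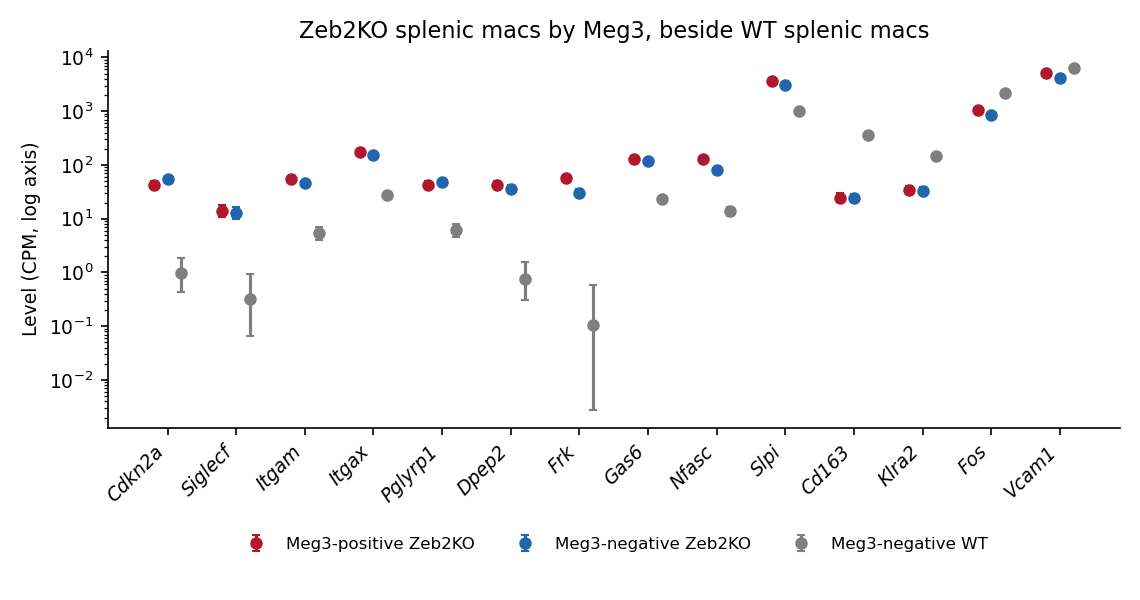
Levels of genes chosen after their values were seen in Meg3-positive and Meg3-negative Zeb2KO splenic macs and in Meg3-negative WT splenic macs, as CPM on a log axis with exact Poisson 95% intervals as bars. For Cdkn2a, Itgam and Cd163 the 2 Zeb2KO groups lie near each other and apart from WT, with Cd163 at 24.6 and 24.3 CPM against 361.

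The same rule was applied to the other libraries to see where Meg3-positive macs occur. They were 0 of 3089 C1q-positive WT microglia, which allows a share of up to 0.0971% when 3 counts are taken as the limit for a count of 0, and 1 of 3500 Zeb2KO microglia. Alveolar macs could hardly be read by this rule, since 0 of 7703 WT and 139 of 6583 Zeb2KO cells were C1q-positive, and 0 of the 139 had 2 or more Meg3 UMIs (up to 2.16% by the same limit). In WT Kupffer cells (KCs), the macs of the liver, 1 of 4602 met it, and in KCs of Nr1h3fl/fl WT mice 9 of 3862 (0.233%). In Zeb2KO KCs 132 of 4672 did (2.83%, 2.37% to 3.34%). The labels name Fcgr1-cre for the liver and lung mice, whereas in the study's methods the liver mice carry Clec4f-cre and the lung mice Itgax-cre. In the colon 129 of 4988 WT (2.59%) and 93 of 4385 Zeb2KO cells (2.12%) met it.

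The Meg3-positive Zeb2KO KCs also had the downstream RNAs. Mirg was at 27.3 CPM in them (22 UMIs) and had 1 UMI in the 4493 Meg3-negative KCs, a ratio of 790 (128 to 32596). B830012L14Rik was at 16.1 CPM (13 UMIs) against 0 UMIs, at least 156-fold higher. Depth was close to even here, with medians of 5532.5 and 5716 UMIs, and at least 3 UMIs of endothelial markers were found in 30.3% and 34.0% of cells, with 6 of the 7 endothelial genes considered past 2-fold lower in the Meg3-positive KCs. Of 5592 genes, 34 (0.608%) were 2-fold higher and 77 (1.38%) lower. All 3 monocyte markers considered were past 2-fold lower (summed level 225 against 609 CPM), as were 9 of 20 genes of DNA replication and mitosis (median -0.95), and the part of these cells in the other differences was not tested. Marco was at 1059 against 394 CPM, a ratio of 2.69 (2.50 to 2.88), Cd163 at 130 against 50.4, and the phosphatidylserine receptor Timd4 at 269 against 121. Fn1, which encodes fibronectin, was lower at 3 against 3517 UMIs (3.72 and 122 CPM), and Fcgr2b at 47.2 against 136 CPM. The fibroblast gene Dcn was at 21.1 against 4.67 CPM, and 1 of the 132 Meg3-positive KCs had 3 or more UMIs of fibroblast markers. Fcgr2b was thus lower in the Meg3-positive cells of liver and spleen, whereas Cd163 and Cdkn1a, at 113 against 48.2 CPM in KCs, were past 2-fold higher in the Meg3-positive cells in the liver and not in the spleen. Whether the tissues differ was not tested.

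In the colon the cells with Meg3 carried the markers of fibroblasts. At least 3 UMIs of fibroblast markers were found in 129 of 129 Meg3-positive WT cells and 92 of 93 Meg3-positive Zeb2KO cells, against 20.9% and 13.96% of Meg3-negative cells. Dcn, a matrix protein of fibroblasts, was at 7180 CPM against 75.2 in WT, and Cd74 at 2537 against 23034. Past 2-fold were 1475 genes higher (22.6%) and 861 lower (13.2%) of 6514 in WT, and 1420 (21.5%) and 917 (13.9%) of 6601 in Zeb2KO. In the spleen 0 of the 1226 Meg3-positive SMs had 3 or more fibroblast UMIs, which allows a share of up to 0.245% by the limit of 3 counts. Mirg had 8 UMIs against 0 in WT colon and 6 against 1 in Zeb2KO colon.

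**Figure D5:**
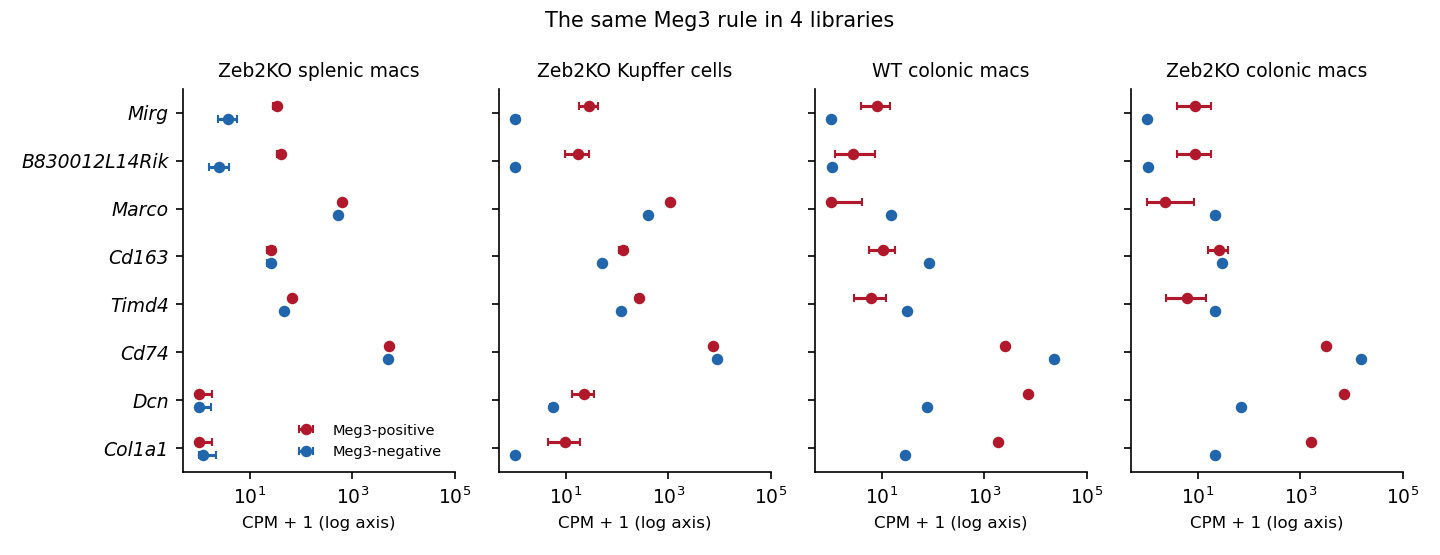
Levels of named genes in Meg3-positive and Meg3-negative cells of the Zeb2KO spleen, the Zeb2KO liver and the WT and Zeb2KO colon, as CPM plus 1 on a log axis with exact Poisson 95% intervals. Mirg is higher in the Meg3-positive cells of each library, and the fibroblast gene Dcn is far higher in them in the colon, with 7180 against 75.2 CPM in WT, and at 0 UMIs in both groups of the spleen.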

How the data were processed

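The authors ran Cell Ranger with STAR on the mm10 genome, and the deposited tables hold raw UMI counts, with 27998 genes in rows and cell barcodes in columns, for each of the 11 libraries. The count table does not list Rian. The cells, gene lists and comparisons were chosen with earlier results of these data known. UMIs were summed over the cells of a group and scaled to 1000000 (CPM). A gene was considered at 20 CPM or more in the higher group and called past 2-fold at a log2 ratio, with 1 CPM added to each level, of 1 or more up or down. With 1 library per genotype no test was made. Intervals are exact Poisson (levels), exact conditional (ratios) and Clopper-Pearson (shares), at 95%, the limit for a count of 0 is 3 counts of the total, and with sums of 4548024 and 4859248 UMIs they cover counting error only.

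Genes to name were to be the 15 highest and 15 lowest past 2-fold at 50 CPM or more, also without cells with 3 or more UMIs of another cell type's markers and after weighting in 10 depth bins, beside Meg3, Cdkn2a, Vcam1, Zeb2, Mirg, markers of Zeb2 loss and, of each list, the most abundant members and those past 2-fold. Thinning drew 1500 UMIs per cell, and cells with fewer were left out. Scrublet in scanpy 1.11.5 called 1 of 3744 cells, too few to be used as a doublet call, so the highest 5% of its scores were left out as an alternative. That 5% held 7.99% of Meg3-positive and 5.41% of Meg3-negative cells. Python 3.11.15, numpy 2.4.6 and scipy 1.17.1 were used, and the scripts were tested on simulated data. Gene positions are of GENCODE M21, where 26646 gene symbols matched, and promoter windows of RefSeq.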

Additional observations from a re-analysis of the deposited data

Results flagged for a closer look

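A Meg3 UMI was found in cells of the Zeb2KO spleen library that the comparisons did not use. Of the 452 cells with fewer than 3 C1q UMIs, 91 (20.1%) held one, above the 0.601% (5 of 832) of such cells in the WT spleen library. Cd79a, a B cell gene, was at 956 CPM in these Zeb2KO cells, and Vcam1 at 787 CPM against 4683 CPM in C1q-positive cells. The 2 libraries were each the only one of their genotype, and this difference was not tested.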

How the results depend on the processing

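The share of Meg3-positive cells, 37.2% as reported, was 43.1% with 10 or more C1q UMIs and 26.9% with cells thinned to 1500 UMIs. The count of genes past 2-fold higher, 4 as reported, was 8 with 5 or more Meg3 UMIs, 2 with 5 CPM added, 27 at 5 CPM or more, 0 at 50 CPM or more and 85 with no filter on low values. The count lower, 52 as reported, was 3 without cells holding other markers, 7 with equal depth as well (an alternative chosen after seeing the data), 32 with 1 or more Meg3 UMIs, 11 with 10 or more C1q UMIs, 131 at 5 CPM or more, 13 at 50 CPM or more and 309 with no filter. The split of higher against lower therefore depends on which cells and low genes are kept. Counts against WT moved by under 1.5 times without cells holding other markers. Ebf1 turned from -2.08 to 0.0356 without those cells and to 0.48 with equal depth as well, and the B cell list from -1.31 to 0.0329 and 0.34, where the filter uses these genes. Over all alternatives run, the log2 difference of Mirg was 2.30 to 3.59, B830012L14Rik 2.76 to 4.37, S100a11 -1.19 to -0.80, Cdkn2a -0.52 to -0.22 and Vcam1 0.15 to 0.33. No paired analysis was possible because each genotype had 1 library, and for the same reason no replicate could be left out.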
